A study of Mus musculus with 6 samples.

Results

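The genes of the insulin-like growth factor (IGF) system examined here were the ligands *Igf1* and *Igf2*, the receptors *Igf1r* and *Igf2r*, and the binding proteins *Igfbp2* to *Igfbp7*. They were chosen by family name and not by a filter on measured values, although earlier results of these data were known. They make up 10 of the 25140 genes in the deposited table. All 10 passed the filter on low counts. RNA-seq had been performed on cultured fibroblasts to examine gene expression with and without transforming growth factor-β (TGFβ), an agonist that turns fibroblasts into contractile, matrix-producing myofibroblasts. The labels describe primary cardiac fibroblasts of C57BL/6 mice at passage 1, and the methods also name cardiac fibroblasts, whereas the study's results call the cells mouse embryonic fibroblasts. Every culture was grown in medium with 25 mM glucose and 10% fetal bovine serum (FBS), then kept in 1% FBS before treatment, for 16 h by the labels and 24 h by the methods. The TGFβ group (n = 3 libraries) then received TGFβ at 10 ng/ml for 24 h, and the vehicle group (n = 3) received vehicle. The serum itself carries IGFs and binding proteins, which RNA-seq of mouse cells does not count. The methods call the 3 libraries of a group biological replicates, and the sources do not say whether they came from separate animals or cultures, so p-values measure the spread between these samples.

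IGF-I and IGF-II are small secreted peptides related to insulin that promote growth, survival and protein synthesis, and fibroblasts are among their main local sources in tissues. Both act through IGF1R, a receptor tyrosine kinase that signals through the IRS adaptors to PI3K and AKT, whereas IGF2R takes up IGF-II for degradation in lysosomes and also sorts lysosomal enzymes. IGFBP2 to IGFBP6 bind the ligands with high affinity outside the cell and hold them until proteases release them, and IGFBP7 binds them only weakly.

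The 6 libraries held 27851677 to 31072338 counts in genes, and each is identified by its group and its total. Values are in CPM, counts relative to the scaled size of the library, unless another scale is named. "Called" means an adjusted p below 0.05 by the quasi-likelihood test of edgeR, adjusted after Benjamini-Hochberg over the 14334 genes tested, and 95% intervals of log2 fold changes come from the same test. In that test 40.7% of all genes tested were called, 20.5% higher and 20.1% lower with TGFβ. All 7 myofibroblast genes set as a check of the treatment were called higher, among them *Acta2* (log2 fold change 1.03) and *Postn* (1.55). Of 11 fibroblast markers, 8 were called lower and none higher, including *Pdgfra*, at 665 ± 55.3 CPM with vehicle and 257 ± 18.3 with TGFβ (SD, n = 3 each). The study also counts *Pdgfra*, *Col1a1* and *Col3a1* of this list among myofibroblast genes. Here *Col3a1* was called lower (log2 fold change -0.94) and *Col1a1* was not called (0.23). By qPCR of embryonic fibroblasts given a control adenovirus, the study reported a rise of *Pdgfra* mRNA with TGFβ. That direction is the opposite of the one seen here. The study described the rise beside the loss of a histone mark, measured earlier than the 24 h used here. For the samples of this RNA-seq, it also reported more open chromatin at *Pdgfra* with TGFβ. It showed their RNA-seq at *Pdgfra* in a figure. Its text says that more open chromatin went with either higher or lower mRNA, and gives no direction for the RNA-seq of *Pdgfra*. Of 7 cardiomyocyte markers, *Myh6*, *Actc1*, *Ttn* and *Myl2* did not pass the filter on low counts. The other 3 passed and were not called, with *Tnnt2* at 46.7 and 34.0 CPM and *Nppa* and *Tnni3* below 1 CPM in both group means. In bulk samples such as these, fewer cells of a type and less RNA per cell cannot be told apart.

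Of the 10 IGF genes, 1 was called higher (*Igf1*), 3 were called lower (*Igfbp4*, *Igfbp5* and *Igfbp6*) and 6 were not called. The 4 calls among 10 genes stand against a background of 40.7%. The 3 that fell were all binding proteins, 3 of the 6 measured, against 20.1% of all genes tested. CPM of the groups did not overlap for these 4 genes, compared with 53.3% of all genes tested. The median log2 fold change over the 10 genes was -0.14, and over all genes tested it was -0.00.

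**Figure D1:**
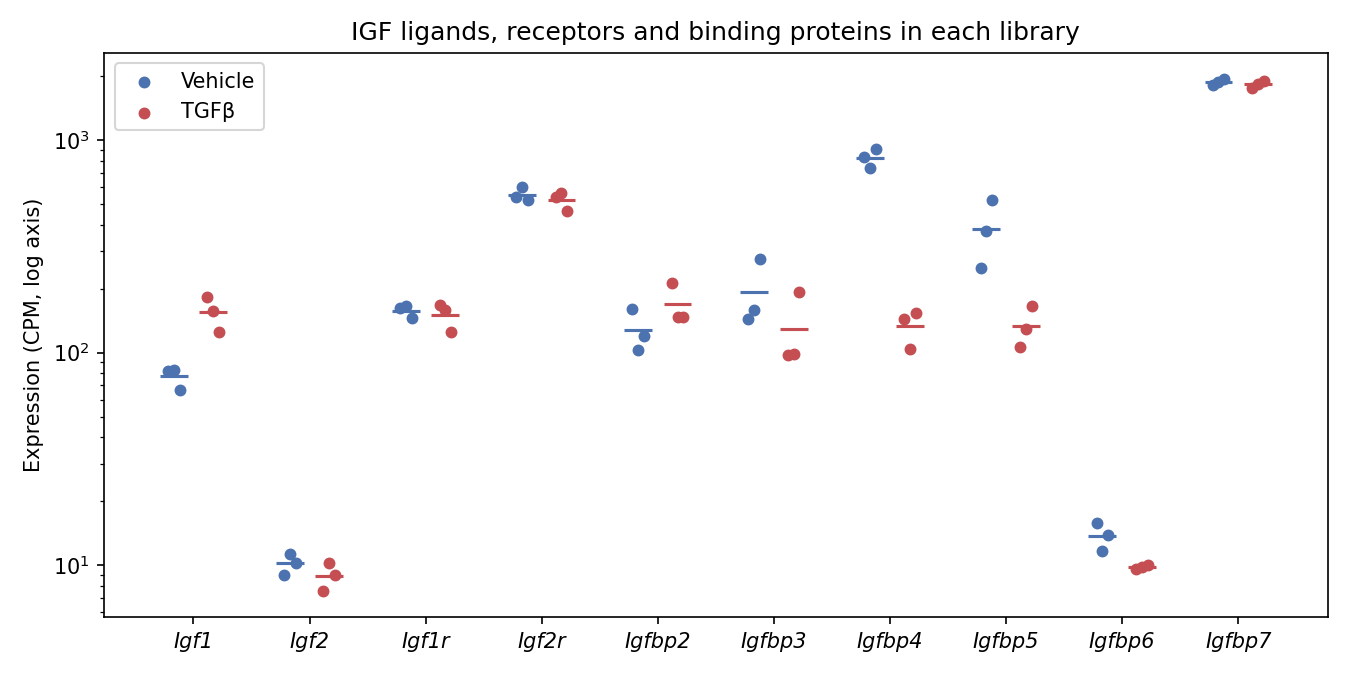
Level of each IGF gene in each library, in CPM on a log axis. Dots are single libraries (blue, vehicle; red, TGFβ) and short lines are group means. The red and blue dots are apart for *Igf1*, *Igfbp4*, *Igfbp5* and *Igfbp6* and mixed for the other 6 genes.

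**Figure D2:**
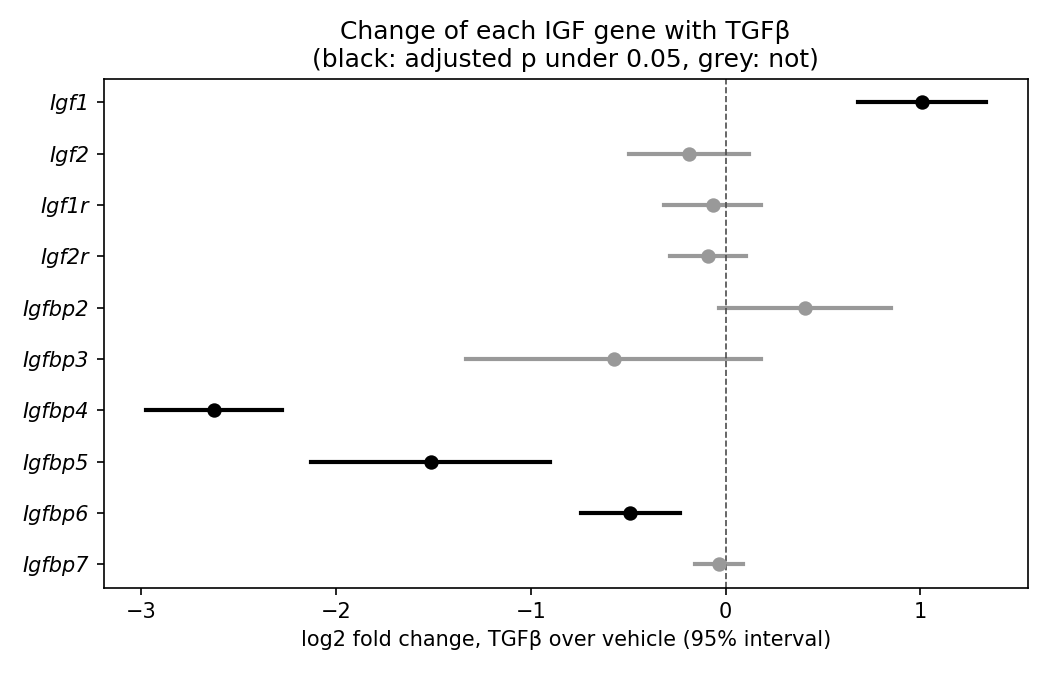
Fold change with TGFβ on the log2 scale for each IGF gene, with the 95% interval from edgeR's quasi-likelihood test. Black points had an adjusted p below 0.05 and grey points did not. *Igfbp4* lies farthest from 0, at -2.63, and *Igf1* is the only black point above 0, at 1.01.

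To see whether the ligands moved with TGFβ, *Igf1* and *Igf2* were compared first. *Igf1* (ENSMUSG00000020053, chr10:87858265-87937042 on the plus strand, GRCm38) encodes IGF-I. Its level was 82.2, 83.0 and 66.8 CPM in the vehicle libraries of 31072338, 29296570 and 29331999 counts. In the TGFβ libraries of 27851677, 28894151 and 28641986 counts it was 183, 157 and 126 CPM. Every TGFβ library was above every vehicle library. The mean rose from 77.4 ± 9.17 to 156 ± 29.0 CPM (SD, n = 3 each), which is 2.01-fold with an interval of 1.60 to 2.52. The log2 fold change was 1.01 with a standard error of 0.14 and an adjusted p of 0.00107 by the quasi-likelihood test of edgeR (Benjamini-Hochberg). A two-sided exact permutation test gave p = 0.1, the smallest that 3 libraries against 3 allow. The rise was between 0.87 and 1.13 on the log2 scale in all 12 alternative analyses. Among all called genes, 343 rose by at least as much, *Igf1* included.

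Macrophages are another known source of *Igf1*. The summed level of 9 leukocyte and macrophage markers was 267, 281 and 383 CPM in the vehicle libraries, in the order given above, and 231, 249 and 343 CPM in the TGFβ libraries. These ranges overlapped, 1 of the 9 markers was called (*Cd14*, lower), and *Igf1* was lowest in each group in the library where the sum was highest. *Igf1* divided by this sum was 0.309, 0.295 and 0.174 with vehicle and 0.794, 0.634 and 0.366 with TGFβ, without overlap. Most of the sum was *Lyz2*, with means of 232 CPM with vehicle and 202 CPM with TGFβ, so the ratio rests largely on that gene. The part of leukocytes and macrophages in the level of *Igf1* was not tested.

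The 3 genes whose pattern over the 6 libraries was most like that of *Igf1* were *Loxl4*, *Dlg2* and *Mn1*. Likeness was measured as the root mean square difference of log2 CPM, each gene centred on its own mean, over 10372 genes whose mean reached 5 CPM. The difference was 0.0515 for *Loxl4*, a lysyl oxidase family member of the kind that crosslinks collagen, 0.101 for *Dlg2*, a scaffold protein, and 0.114 for *Mn1*, a transcriptional coregulator. *Loxl4* ran from 59.5 to 75.4 CPM with vehicle and from 124 to 170 CPM with TGFβ.

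*Igf2* (ENSMUSG00000048583, chr7:142650766-142666816 on the minus strand) encodes IGF-II and is an imprinted gene that is highly expressed in fetal tissues. It was low in all libraries, at 8.96, 11.3 and 10.3 CPM with vehicle and 7.53, 10.3 and 8.98 CPM with TGFβ, so the groups overlapped. On the log2 scale the difference was -0.19 with a 95% interval from -0.50 to 0.12, and the adjusted p in edgeR's quasi-likelihood test was 0.299. The interval reaches down to 0.709 times the vehicle level. *Igf2* is uncertain because an annotated gene on the same strand, *Gm49394*, holds 75.8% of its 75-base windows. *Gm49394* has no row in the deposited table, and the annotation used for counting is not given. Whether the shared windows affected the *Igf2* counts is therefore unknown. The ratio of *Igf1* to *Igf2*, each as CPM per kilobase of annotated exons, was 4.43 ± 0.791 with vehicle and 10.3 ± 3.26 with TGFβ (SD, n = 3 each), without overlap between the groups (exact permutation p = 0.1, two-sided).

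Neither receptor was called. *Igf1r* (ENSMUSG00000005533, chr7:67952827-68233668 on the plus strand), the signalling receptor, was at 161, 165 and 145 CPM with vehicle and 167, 158 and 125 CPM with TGFβ. *Igf2r* (ENSMUSG00000023830, chr17:12682406-12769664 on the minus strand), the clearance receptor, was at 539, 600 and 522 CPM with vehicle and 539, 561 and 461 CPM with TGFβ. In both genes the ranges overlapped, and the lowest library of each group was the vehicle library of 29331999 counts or the TGFβ library of 28641986 counts. The difference on the log2 scale was -0.07 for *Igf1r* (95% interval -0.31 to 0.18, adjusted p = 0.654 by edgeR). For *Igf2r* it was -0.09 (95% interval -0.29 to 0.11, adjusted p = 0.437 by edgeR). The intervals therefore leave room for a decrease to 0.804 times the vehicle level in *Igf1r* and 0.820 times in *Igf2r*.

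Levels of different genes were compared per kilobase of annotated exons. *Igf2r* stood at 6.36 ± 0.301 times the level of *Igf1r* with vehicle and 6.30 ± 0.445 times with TGFβ (SD, n = 3 each, exact permutation p = 0.8, two-sided). The SD covers the spread over libraries only, and the size of this ratio depends on the length used. Per kilobase of the longest transcript, the vehicle means were 62.3 CPM for *Igf2r* and 13.8 CPM for *Igf1r*, which are closer together. *Igf1r* stood at 2.36 ± 0.334 times the level of the insulin receptor gene *Insr* with vehicle and 2.26 ± 0.331 times with TGFβ (exact permutation p = 0.5). *Airn*, the antisense RNA across *Igf2r*, had 0.439% as many counts as *Igf2r*.

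The binding proteins held the largest changes of the family. The promoters of the 3 that fell are printed here from RefSeq (GRCm38.p6), so that their sequence can be read beside the levels. Each reads 5′ to 3′ toward the start of transcription on the strand of the gene and stops before the annotated gene. Capitals mark a match to the TATA box letters TATAAA on either strand, which appears as TTTATA where it lies on the opposite strand. *Igfbp4* is shown from chr11:99040994-99041243 (plus strand), *Igfbp5* from chr1:72874885-72875115 (minus strand) and *Igfbp6* from chr15:102143936-102144185 (plus strand).
Igfbp4: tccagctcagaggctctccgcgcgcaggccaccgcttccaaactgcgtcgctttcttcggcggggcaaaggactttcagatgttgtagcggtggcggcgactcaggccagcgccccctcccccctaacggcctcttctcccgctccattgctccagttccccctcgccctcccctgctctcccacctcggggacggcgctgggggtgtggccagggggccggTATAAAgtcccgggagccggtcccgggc
Igfbp5: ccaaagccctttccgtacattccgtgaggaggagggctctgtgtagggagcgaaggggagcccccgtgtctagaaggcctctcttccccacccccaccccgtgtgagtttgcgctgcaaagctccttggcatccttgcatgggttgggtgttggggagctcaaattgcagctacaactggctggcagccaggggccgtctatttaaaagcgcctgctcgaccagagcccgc
Igfbp6: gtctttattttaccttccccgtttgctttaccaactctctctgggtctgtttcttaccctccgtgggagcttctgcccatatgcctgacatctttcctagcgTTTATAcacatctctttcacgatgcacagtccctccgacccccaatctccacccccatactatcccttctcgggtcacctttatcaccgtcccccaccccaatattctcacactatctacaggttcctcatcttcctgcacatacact

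The *Igfbp4* promoter held TATAAA from 28 to 23 bases before the start, where TATA boxes usually lie. In *Igfbp6* the match lay on the opposite strand from 148 to 143 bases before the start. That RefSeq start, chr15:102144186, lies upstream of the start of the annotated gene at 102144362, so the match is farther from the latter. These letters were present within 250 bases before the start in 12.4% of 32851 RefSeq promoters, and in 2 of the 14 promoters of the 10 IGF genes. For the SMAD proteins that carry the TGFβ signal, the letters CAGACA were searched on both strands and found in 17.1% of all promoters and in 2 of the 14, both of *Igf2*. The palindrome GTCTAGAC was found in 0.167% of all promoters and the FOXO site GTAAACA in 3.17%, and neither in the 14. The GC content of the 250 bases was 69.2% in *Igfbp4*, 58.8% in *Igfbp5* and 49.6% in *Igfbp6*. These matches describe exact letters in these windows only, and variants of them were not searched, so an unmarked promoter may still hold a variant.

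*Igfbp4* (ENSMUSG00000017493, chr11:99041244-99054392 on the plus strand) encodes a secreted inhibitor of IGF action that the protease PAPP-A cleaves. It was at 832, 742 and 905 CPM with vehicle and at 144, 104 and 153 CPM with TGFβ, so its highest TGFβ library lay far below its lowest vehicle library. The mean fell from 826 ± 81.9 to 134 ± 26.4 CPM (SD, n = 3 each), a 6.18-fold lower level. The log2 fold change was -2.63 with a standard error of 0.15 and a 95% interval from -2.98 to -2.28 (adjusted p = 1.82e-05 by edgeR, exact permutation p = 0.1). Of all called genes, 36 fell by at least as much, *Igfbp4* included. In all 12 alternative analyses the log2 fold change lay between -2.74 and -2.48. The raw counts behind these values ran from 22000 to 27002 with vehicle and from 2892 to 4366 with TGFβ.

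*Igfbp5* (ENSMUSG00000026185, chr1:72857932-72874884 on the minus strand) encodes a binding protein that attaches to extracellular matrix and is known from fibrotic tissue. Its level was 250.4, 375 and 521 CPM with vehicle and 107, 129 and 165 CPM with TGFβ. The vehicle libraries were spread widely, with a coefficient of variation of 35.5%, yet did not overlap the TGFβ libraries. The log2 fold change was -1.51 with a standard error of 0.26 (adjusted p = 0.0030 by edgeR, exact permutation p = 0.1), a 2.86-fold lower level. Without 1 library at a time and with other tools it ranged from -1.74 to -1.22. *Igfbp5* and *Igfbp2* are neighbours on chromosome 1, on opposite strands and 5.5 kb apart with 0 annotated genes between them, but only *Igfbp5* was called.

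Of the summed markers of other cell types, those of mural cells, the pericytes and smooth muscle of vessel walls, separated the groups as *Igfbp4* and *Igfbp5* did. The sum of 7 mural markers was 267, 287 and 295 CPM with vehicle and 191, 141 and 178 CPM with TGFβ. With vehicle, most of the sum was *Notch3*, which fell from 207 to 57.3 CPM with TGFβ (log2 fold change -1.85, adjusted p = 1.58e-05 by edgeR). *Cspg4* rose from 19.5 to 53.3 CPM (1.45, adjusted p = 0.000614 by edgeR), and the other 5 were not called. The median log2 fold change over the 7 markers was 0.15, so most of them did not fall with the sum. The part of mural cells in the levels of *Igfbp4* and *Igfbp5* was not tested.

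*Igfbp6* (ENSMUSG00000023046, chr15:102144362-102149511 on the plus strand) encodes the binding protein that prefers IGF-II. It was at 15.7, 11.7 and 13.9 CPM with vehicle and at 9.54, 9.85 and 10.0 CPM with TGFβ, without overlap. These levels rest on 346 to 500 counts with vehicle and 261 to 286 with TGFβ. The fall was the smallest of the 3, from 13.8 ± 2.03 to 9.81 ± 0.248 CPM (SD, n = 3 each), which is 1.40-fold lower. This was -0.49 on the log2 scale with a standard error of 0.11 (adjusted p = 0.00953 by edgeR), and the adjusted p stayed at or below 0.0383 in the alternative analyses.

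*Igfbp2* (ENSMUSG00000039323, chr1:72824503-72852474 on the plus strand), whose protein binds integrins as well as IGFs, was at 160, 103 and 120 CPM with vehicle and at 212, 148 and 148 CPM with TGFβ. The highest vehicle library lay above the lower pair of TGFβ libraries. Its difference was 0.41 on the log2 scale with a 95% interval from -0.03 to 0.85 (adjusted p = 0.126 by edgeR, exact permutation p = 0.3). Without the vehicle library of 31072338 counts it was 0.60 with an adjusted p of 0.0342 by edgeR, and without the TGFβ library of 27851677 counts 0.21 with an adjusted p of 0.388. These 2 libraries had the highest *Igfbp2* of their groups and also the highest sum of 6 mesothelial markers. The sum was 91.8, 25.1 and 35.3 CPM with vehicle and 48.6, 16.8 and 20.2 CPM with TGFβ. The same libraries were also highest of their groups in the sum of cardiomyocyte markers (60.1 and 40.6 CPM) and in the mural marker *Des* (17.5 and 32.4 CPM). Nearly all of the cardiomyocyte sum was *Tnnt2* (58.3 and 39.5 CPM in these libraries). The other cardiomyocyte markers were below 1 CPM in both group means and did not all follow it. Beyond the mesothelial markers, the pattern was thus seen in *Tnnt2* and *Des*. None of the 6 mesothelial markers was called, and the part of mesothelial cells in *Igfbp2* was not tested.

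*Igfbp3* (ENSMUSG00000020427, chr11:7206086-7213923 on the minus strand) encodes the main carrier of IGFs in blood. It was at 144, 158 and 275 CPM with vehicle and at 96.9, 98.1 and 192 CPM with TGFβ, so 1 library in each group stood well above the other two and the groups overlapped. The coefficient of variation was 37.4% with vehicle and 42.2% with TGFβ, against medians of 4.60% and 4.97% over 10373 genes whose mean reached 5 CPM. Only 51 and 30 of those genes varied more. Between the groups the log2 fold change was -0.57 with a 95% interval from -1.33 to 0.18 (adjusted p = 0.199 by edgeR, exact permutation p = 0.3). Without the TGFβ library of 28641986 counts it was -0.99 with an adjusted p of 0.0267 by edgeR, and without the vehicle library of 29331999 counts -0.23 with an adjusted p of 0.582.

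The libraries that were high in *Igfbp3* were also high in 7 of 8 endothelial markers. The eighth, *Tek*, was lowest of its group in the same libraries, at 79.7, 92.7 and 74.6 CPM with vehicle and 94.8, 115 and 83.8 CPM with TGFβ. The sum of 8 endothelial markers was 455, 508 and 698 CPM with vehicle and 411, 451 and 567 CPM with TGFβ, none of the 8 was called, and the highest sum in each group was in the library with the highest *Igfbp3*. The same libraries were highest of their groups in the leukocyte and macrophage sum (383 and 343 CPM). They were also highest in the mural marker *Rgs5* (18.7 and 24.5 CPM) and the fibroblast marker *Lum* (374 and 193 CPM). The pattern was thus not confined to endothelial markers, although the mesothelial sum was highest in other libraries. So was the cardiomyocyte sum, but nearly all of it was *Tnnt2*. The other cardiomyocyte markers were below 1 CPM in both group means and did not all follow *Tnnt2*. *Gpihbp1*, *Cldn5* and *Pcdh12*, all of them endothelial genes, had the patterns most like *Igfbp3*, with root mean square differences of 0.0481, 0.0663 and 0.116 on the log2 scale. *Gpihbp1* was at 4.53, 5.53 and 9.08 CPM with vehicle and at 3.33, 3.33 and 6.38 CPM with TGFβ. *Igfbp3* divided by the endothelial sum was 0.315, 0.311 and 0.393 with vehicle and 0.236, 0.217 and 0.338 with TGFβ, again with overlap (exact permutation p = 0.3, two-sided). The part of endothelial cells in the level of *Igfbp3* was not tested. *Igfbp5* was also highest of its group in these libraries. Divided by the endothelial sum, it was at 0.550, 0.738 and 0.747 with vehicle and 0.259, 0.286 and 0.292 with TGFβ. The part of endothelial cells in the level of *Igfbp5* was not tested either.

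**Figure D3:**
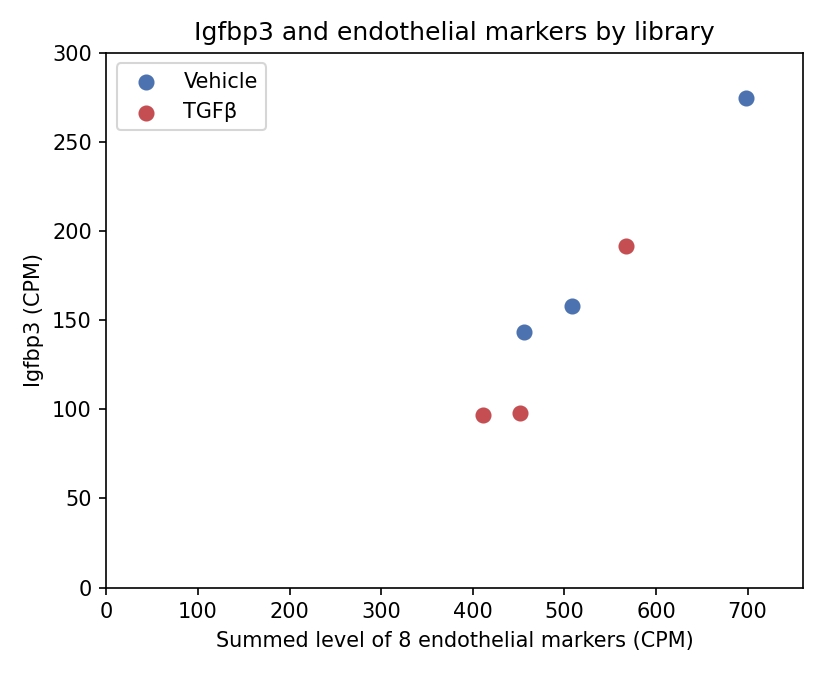
*Igfbp3* level (vertical axis, CPM) against the summed level of 8 endothelial markers (horizontal axis, CPM) in the 6 libraries; each dot is 1 library (blue, vehicle; red, TGFβ). The vehicle library at 698 CPM of markers and the TGFβ library at 567 CPM hold the highest *Igfbp3* of their groups, 275 and 192 CPM.

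*Igfbp7* (ENSMUSG00000036256, chr5:77349240-77408041 on the minus strand), the low-affinity relative found in vessel walls and matrix, was the most abundant IGF gene. It was at 1810, 1872 and 1943 CPM with vehicle and at 1762, 1831 and 1896 CPM with TGFβ, with overlapping groups. The log2 fold change was -0.04 with a 95% interval from -0.16 to 0.09 (adjusted p = 0.637 by edgeR), the narrowest interval of the 10 genes. *Polr2b*, which overlaps *Igfbp7* on the opposite strand, had 3.31% as many counts.

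Per kilobase of annotated exons, the vehicle order began with *Igfbp7* at 1551 ± 55.3 CPM per kb and *Igfbp4* at 187 ± 18.5 CPM per kb (SD, n = 3 each). *Igfbp2* (69.0 ± 15.8), *Igfbp5* (63.6 ± 22.6), *Igfbp3* (61.4 ± 22.9) and *Igf2r* (59.5 ± 4.40 CPM per kb) followed, and neighbours among these 4 were not separated beyond their ranges over libraries. *Igfbp6* (12.4 ± 1.82), *Igf1r* (9.35 ± 0.637), *Igf1* (7.81 ± 0.926) and *Igf2* (1.78 ± 0.208 CPM per kb) closed the order without overlap between neighbours. Per kilobase of the longest transcript, however, *Igf1r* (13.8) stood above *Igfbp6* (12.4). The level and place of *Igf2* are uncertain in both groups because of the windows it shares with *Gm49394*. With TGFβ, *Igfbp7* remained first at 1513 ± 55.3 CPM per kb and *Igfbp2* was next at 91.6 ± 20.3. *Igf2r* (55.9 ± 5.61), *Igfbp3* (41.2 ± 17.4), *Igfbp4* (30.3 ± 5.99), *Igfbp5* (22.3 ± 4.93) and *Igf1* (15.7 ± 2.93 CPM per kb) formed a chain in which each overlapped the next. *Igf1r* (8.93 ± 1.34) and *Igfbp6* (8.82 ± 0.223) also overlapped, and *Igf2* was last at 1.56 ± 0.240 CPM per kb. *Igfbp4* thus passed from the place after *Igfbp7* to the fifth place. The ratio of *Igf1* to *Igfbp4* on this scale was 0.0423 with vehicle and 0.537 with TGFβ, 12.7-fold apart, which combines the rise of one with the fall of the other.

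Summed over the 6 binding proteins, the level was 1873, 1895 and 2064 CPM per kb with vehicle and 1663, 1679 and 1781 CPM per kb with TGFβ. The groups did not overlap, and the mean with TGFβ was lower by 12.2%, from 1944 ± 104 to 1708 ± 63.8 CPM per kb (SD, n = 3 each, two-sided exact permutation p = 0.1). Without *Igfbp7* the sum was 377, 347 and 457 CPM per kb with vehicle and 205, 165 and 212 CPM per kb with TGFβ, a ratio of means of 0.493 (exact permutation p = 0.1).

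The makeup of the 6 binding proteins was described by the share of each in this sum, and no share had an adjusted p below 0.15. The share of *Igfbp7* was 79.8 ± 1.91% with vehicle and 88.6 ± 1.34% with TGFβ, and that of *Igfbp4* was 9.62 ± 0.658% and 1.77 ± 0.323%. *Igfbp5* made up 3.24 ± 0.991% and 1.30 ± 0.239%, and *Igfbp6* 0.637 ± 0.104% and 0.517 ± 0.0104% (SD, n = 3 each). These 4 shares did not overlap between the groups and had exact permutation p = 0.1 each, or 0.15 after Benjamini-Hochberg adjustment over the 6 shares. The shares of *Igfbp2* (3.56 ± 0.915% and 5.39 ± 1.33%, exact permutation p = 0.2) and *Igfbp3* (3.12 ± 0.984% and 2.39 ± 0.910%, exact permutation p = 0.5) overlapped. The difference in the share of *Igfbp6* was -0.121 percentage points, and -0.0624 without the vehicle library of 31072338 counts. Among the 5 without *Igfbp7*, *Igfbp4* held 47.8% with vehicle and 15.5% with TGFβ, whereas *Igfbp2* held 17.7% and 47.4%. The level of *Igfbp2* itself was not called, as given above.

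**Figure D4:**
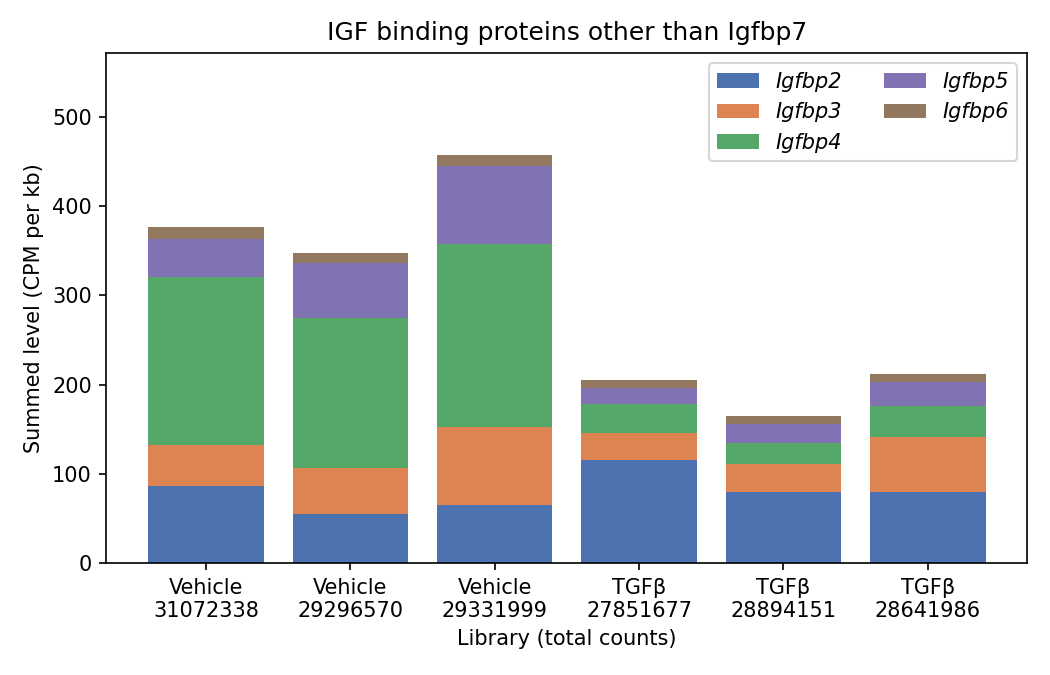
Stacked bars of the levels of *Igfbp2* to *Igfbp6* in each library, in CPM per kilobase of annotated exons, with *Igfbp7* left out because it exceeds the scale. Bars of the 3 vehicle libraries reach 347 to 457 CPM per kb and bars of the 3 TGFβ libraries 165 to 212, and the *Igfbp4* segment is the one that shrinks most.

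The IGF genes were then set beside further genes of the same pathway, 59 in 6 overlapping lists. Of these, 57 were listed and 54 tested, and 27 were called, 7 higher and 20 lower, with a median log2 fold change of -0.06. These 27 of 54 stand against 40.7% of all genes tested. *Igfbp1* and *Igfals* were not analysed here, and *Igfbpl1*, *Adam28* and *Insrr* did not pass the filter on low counts.

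Of 9 tested genes of binding-protein proteolysis, 1 was called higher and 3 lower, and 4 calls among 9 are near the background of 40.7%. *Stc2* encodes stanniocalcin-2, an inhibitor of the protease PAPP-A. It rose from 29.5 ± 2.43 to 48.9 ± 7.48 CPM (SD, n = 3 each), or by 0.73 on the log2 scale (adjusted p = 0.00186 by edgeR). *Stc1*, the other stanniocalcin gene of the list, was at 8.51 and 4.52 CPM and was not called (-0.91, adjusted p = 0.126 by edgeR). *Pappa*, which encodes the protease for IGFBP4 itself, was at 107 and 108 CPM (log2 fold change 0.01, 95% interval -0.16 to 0.18, adjusted p = 0.923 by edgeR). *Htra3*, a secreted serine protease gene of a family that cleaves binding proteins, fell from 52.6 to 17.8 CPM (log2 fold change -1.56, adjusted p = 0.000533 by edgeR). *Htra1* of the same family was at 91.1 and 94.8 CPM and was not called (0.06, adjusted p = 0.734 by edgeR). *Adam9*, a membrane metalloprotease gene, fell from 609 to 454 CPM (-0.42, adjusted p = 0.000514 by edgeR). *Htra4* was low, at 2.54 and 1.46 CPM, and lost its call (-0.79, adjusted p = 0.0205 by edgeR) in 4 of 6 analyses without 1 library, with an adjusted p of 0.0600 and 0.0610 without the vehicle libraries of 31072338 and 29331999 counts and 0.0731 and 0.0702 without the TGFβ libraries of 27851677 and 28894151 counts. Outside this list, *Kazald1* was the 1 tested gene of the list of other carriers and encodes a secreted protein related to the binding proteins. It fell from 6.60 to 3.98 CPM (-0.73, adjusted p = 0.0139 by edgeR), a call lost without the TGFβ library of 27851677 counts (0.0544).

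Among 12 tested relatives and adaptors of the receptor, 2 were called higher and 5 lower, against 20.5% and 20.1% of all genes tested. The docking protein genes moved in opposite directions, *Irs1* from 38.4 to 53.6 CPM (log2 fold change 0.48, adjusted p = 0.0475 by edgeR) and *Irs2* from 49.98 to 39.4 CPM (-0.34, adjusted p = 0.0183 by edgeR). The *Irs1* libraries overlapped, at 40.8, 42.7 and 31.8 CPM with vehicle and 63.5, 55.8 and 41.6 CPM with TGFβ, and its call was lost in 7 of 12 alternative analyses. Its adjusted p was 0.0777, 0.0571 and 0.122 without the vehicle libraries of 31072338, 29296570 and 29331999 counts and 0.153 and 0.118 without the TGFβ libraries of 27851677 and 28894151 counts. The *Irs2* call was lost without the TGFβ library of 27851677 counts (0.0726) or that of 28894151 counts (0.0658). *Grb10*, an imprinted gene for an adaptor that restrains receptor signalling, rose from 234 to 281 CPM (0.26, adjusted p = 0.0176 by edgeR), a call lost without the vehicle library of 29296570 (0.0515) or 29331999 counts (0.0516) or the TGFβ library of 27851677 counts (0.0538). *Gab1* (-0.73), *Grb14* (-0.72) and *Ptpn1* (-0.43), which encode a docking protein, an inhibitory adaptor and a phosphatase of the receptor, were called lower. *Insr* was at 54.9 and 54.4 CPM (-0.01, 95% interval -0.15 to 0.12, adjusted p = 0.866 by edgeR).

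Downstream, 3 of 22 genes of the PI3K and AKT arm were called higher and 7 lower, and these 10 calls among 22 are near the background of 40.7%. *Pik3cb*, a catalytic subunit of PI3K, rose from 26.5 ± 1.40 to 58.0 ± 6.93 CPM, a log2 fold change of 1.13 (adjusted p = 7.46e-05 by edgeR). *Rheb*, the GTPase that activates mTOR complex 1, rose from 97.6 to 143 CPM (0.55), and *Pik3r3*, a regulatory subunit, from 21.7 to 29.6 CPM (0.44). *Deptor*, an inhibitor that binds mTOR, fell from 19.6 ± 1.66 to 8.82 ± 0.790 CPM (-1.15, adjusted p = 7.75e-05 by edgeR). *Pik3ip1*, an inhibitor of PI3K, fell from 23.4 to 15.6 CPM (-0.59), and *Pik3r1*, the main regulatory subunit, from 111 to 84.3 CPM (-0.39). All 6 kept their call in the 12 alternative analyses.

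Of 9 genes that FOXO factors induce when IGF signalling is low, 5 were called lower and 0 higher, against 20.1% and 20.5% of all genes tested, with a median log2 fold change of -0.30. *Klf15*, a transcription factor gene, fell from 21.4 ± 1.35 to 8.08 ± 1.05 CPM (-1.40, adjusted p = 4.96e-05 by edgeR), and *Sesn1*, a stress-induced brake on mTOR complex 1, from 26.6 to 17.8 CPM (-0.58, adjusted p = 0.00130 by edgeR). *Pik3ip1* and *Irs2* belong to this list as well, so their calls are counted in more than 1 list. Of the FOXO genes themselves, *Foxo1* (-0.05) and *Foxo3* (-0.06) were not called and *Foxo4* was called lower (-0.32). IGF signalling was not measured, and the part of FOXO factors in these levels was not tested. Of 4 genes tied to the *Igf2* mRNA or its locus, *Igf2bp2*, an RNA-binding protein gene, fell from 45.3 ± 4.01 to 17.7 ± 0.425 CPM (-1.36, adjusted p = 1.16e-05 by edgeR). Its relative *Igf2bp1* was low and rose from 1.41 to 2.50 CPM (0.81, adjusted p = 0.0139 by edgeR), a call lost without the vehicle library of 29296570 (0.0523) or the TGFβ library of 27851677 counts (0.0539). *H19*, the non-coding RNA expressed beside *Igf2* from the other parental allele, was at 29.8 and 33.5 CPM (0.17, 95% interval -0.18 to 0.53, adjusted p = 0.404 by edgeR).

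**Figure D5:**
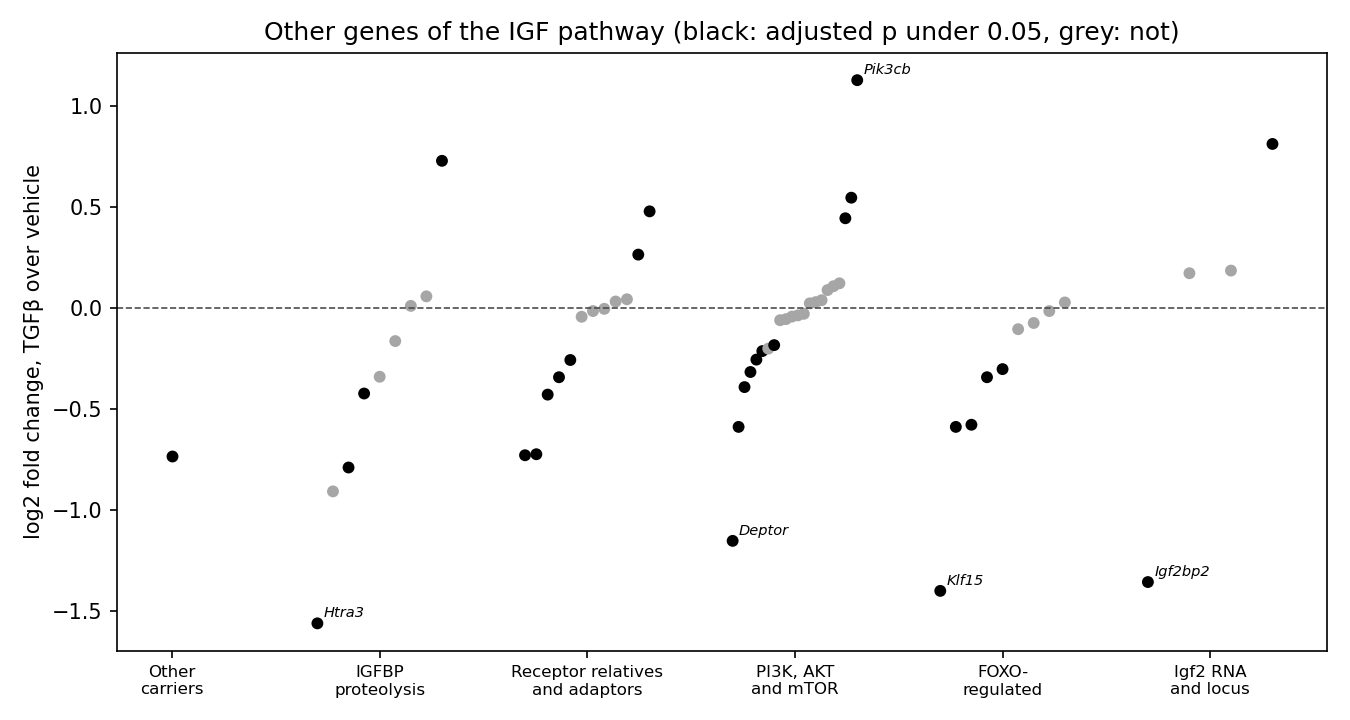
Fold changes with TGFβ on the log2 scale for the tested genes of 6 lists of the IGF pathway, 1 dot per gene (black, adjusted p below 0.05 by edgeR; grey, not called). The dots of *Pik3cb* (1.13), *Htra3* (-1.56), *Deptor* (-1.15), *Klf15* (-1.40) and *Igf2bp2* (-1.36) lie beyond 1 in size and carry their names.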

How the data were processed

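RNA-seq was measured in 3 vehicle and 3 TGFβ libraries. The authors used a stranded poly(A) kit and single reads of 75 bases. Their notes name mm10 and DESeq2, and the aligner, counting program, annotation and strand setting are not given in the sources used here. The deposited table holds raw counts per gene and library, without normalization. Its columns of fold changes and p-values are the authors' own comparison and were not used. Headers of the count columns give only the group, and single libraries are therefore identified by total count. Library totals were 27851677 to 31072338. Counting error matters most for *Igf2* and *Igfbp6*, with 206 to 500 counts a library.

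From the counts, edgeR 4.0.16 (R 4.3.3) gave TMM factors (0.967 to 1.025), the filterByExpr filter and the quasi-likelihood test over all 14334 genes that passed, with Benjamini-Hochberg adjustment. CPM used TMM-scaled totals. Levels per kilobase used the union of GENCODE M21 exons on GRCm38, and promoters came from RefSeq. Summed levels and shares were compared with exact permutation tests over libraries. The fits of edgeR, limma-voom and DESeq2 were tested on simulated counts. These gave every gene the same dispersion, unlike the wide spread of *Igfbp3* and *Igfbp5* here.

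The members and lists were chosen with earlier results of these data known. Named were the 10 IGF genes; up to 3 higher and 3 lower called genes by size of fold change from each further list; *Insr*, *Irs1*, *Irs2*, *Pappa* and *H19* whatever their values; *Acta2*, *Postn* and *Pdgfra*; and the 3 genes each most like *Igf1* and *Igfbp3*. *Polr2b*, *Airn*, *Gm49394*, *Cd14*, *Lyz2*, *Tek*, *Notch3*, *Cspg4*, *Rgs5*, *Lum*, *Col1a1*, *Col3a1* and the cardiomyocyte genes were named after their values were seen. So were *Des*, *Foxo1*, *Foxo3*, *Foxo4*, *Stc1* and *Htra1*. Alternatives were DESeq2 size factors, upper quartile factors, DESeq2 1.42.0, limma-voom (limma 3.58.1), no filter, at least 1 CPM in 3 libraries, an adjusted p of 0.01, the longest transcript as length, and leaving out each library.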

Additional observations from a re-analysis of the deposited data

How the results depend on the processing

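The number of IGF genes called was 4 under every other scaling, tool, filter and threshold tried and 4 or 5 when 1 library was left out. The further IGF genes called numbered 20 to 30. Without 1 library, 3 genes that were not called changed sign in some analyses, *Igf1r* (-0.15 to 0.04), *Insr* (-0.05 to 0.05) and *Pappa* (-0.06 to 0.06), and *Pappa* was also at -0.01 with upper quartile factors. *Irs1* also lost its call with upper quartile factors (adjusted p = 0.0518) and limma-voom (0.0564). With the longest transcript as gene length, the difference in the share of *Igfbp4* was -8.65 instead of -7.85 percentage points, and 6 of 10 genes kept their place in the vehicle order of levels. The summed level of the binding proteins changed by -14.0 to -9.38% over the alternatives. No paired analysis was possible because the count columns carry no replicate number. With 3 libraries a group, an exact permutation test cannot go below 0.1, and *Htra4* and *Igf2bp1* rest on few counts.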
